A study of Arabidopsis thaliana with 12 samples.

Results

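The sigma factors and phage-type RNA polymerases of Arabidopsis thaliana were described from RNA sequencing of seedlings grown on norflurazon. The set was chosen by gene identity and holds 9 of the 38093 genes in the deposited tables: the 6 sigma factor genes SIG1 (AT1G64860), SIG2 (AT1G08540), SIG3 (AT3G53920), SIG4 (AT5G13730), SIG5 (AT5G24120) and SIG6 (AT2G36990), and the 3 polymerase genes RPOTP (AT2G24120), RPOTMP (AT5G15700) and RPOTM (AT1G68990). The groups were the mutants gun1-1, gun4-1 and gun5-1 and the wild type Col-0, the background of all of them, with 3 libraries each and 12 in all. Every group, Col-0 included, germinated on medium with 5 µM norflurazon, a herbicide that blocks carotenoid formation so that plastids photobleach, and was harvested at 5 d under 100 µE of light, so no untreated seedlings enter any comparison. The source is whole seedling in the sample labels and leaf in the design text, and the labels do not state the molecular lesion of any allele. A piperonylic acid treatment of gun5-1 that the labels mention was not analysed here.

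Plastids are transcribed by 2 kinds of RNA polymerase. The plastid-encoded enzyme resembles that of bacteria: its core subunits come from the plastid genes rpoA, rpoB, rpoC1 and rpoC2, while the sigma factors that direct it to promoters come from the nucleus. The phage-type polymerases are nuclear single-subunit enzymes, of which RPOTP works in plastids, RPOTM in mitochondria and RPOTMP in both organelles. The gun mutants are known for keeping nuclear photosynthesis genes active when norflurazon damages the plastid. GUN1 is a plastid pentatricopeptide-repeat protein, GUN5 is the H subunit of magnesium chelatase and GUN4 binds porphyrins and stimulates that enzyme.

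Upstream sequence is shown for 3 genes on which the results turn. SIG2 was called higher in all 3 mutants, in gun4-1 by a call that is lost with a larger standard error. SIG4 was higher in gun1-1 and in gun5-1 than in gun4-1 by a test of the difference, and RPOTMP was called lower in all 3 mutants. The sequences were read from RefSeq TAIR10.1, 5′ to 3′ towards the gene, and end at the base before its annotated 5′ end. They lie at chr1:2703163-2703294 on the plus strand for SIG2 (the 132 bases that overlap no neighbouring gene), at chr5:4430902-4431151 on the minus strand for SIG4 and at chr5:5121842-5122091 on the minus strand for RPOTMP. Capitals mark matches, on either strand, to 3 of the 5 motifs searched: CCAATC (a motif bound by GLK factors), AAAATATCT (the evening element) and TGGGCC (the site II element).
SIG2: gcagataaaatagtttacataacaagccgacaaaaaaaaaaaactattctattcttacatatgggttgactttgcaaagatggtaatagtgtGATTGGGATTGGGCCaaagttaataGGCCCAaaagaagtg
SIG4: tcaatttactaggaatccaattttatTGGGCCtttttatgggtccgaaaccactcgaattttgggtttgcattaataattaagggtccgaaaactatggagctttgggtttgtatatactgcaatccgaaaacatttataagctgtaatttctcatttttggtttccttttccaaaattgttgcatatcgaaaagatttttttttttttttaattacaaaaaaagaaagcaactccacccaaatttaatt
RPOTMP: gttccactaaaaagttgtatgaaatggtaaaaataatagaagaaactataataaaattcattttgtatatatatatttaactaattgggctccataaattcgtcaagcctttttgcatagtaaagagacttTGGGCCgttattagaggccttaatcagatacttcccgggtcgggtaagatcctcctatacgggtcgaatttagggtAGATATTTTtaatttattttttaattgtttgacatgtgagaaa
In SIG2 the letters GATTGG, which read CCAATC on the other strand, stand at bases 40 to 35 and again at 34 to 29 upstream of the gene. The copy nearer the gene overlaps a TGGGCC at 31 to 26, and a further TGGGCC lies on the other strand at 15 to 10. SIG4 had 1 TGGGCC, at 224 to 219. RPOTMP had 1 TGGGCC at 119 to 114 and an evening element on the other strand at 43 to 35.

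Across the 250 bases upstream of all 9 genes, TGGGCC occurred in 6 (SIG1, SIG2, SIG4, SIG6, RPOTMP and RPOTM), against 13.7% of the same windows of 27443 protein-coding genes. This motif was added to the search after the sequences had been read, so its count in these 9 genes is a description and tests nothing. CCAATC occurred in 1 of 9 (SIG2) and in 10.2% of all windows. GATAAG, the I-box, occurred in SIG3 and RPOTM and in 12.3% of all windows, and AAAATATCT in SIG3 and RPOTMP and in 2.36%. CACGTG, the G-box, was in none of the 9 windows and in 6.49% of all. The windows of SIG5 and RPOTP held none of the 5 motifs. Those of SIG1, SIG2, SIG3, SIG6 and RPOTM overlap a neighbouring annotated gene in part or in whole. The bases next to the gene that overlap no neighbour number 2 in SIG1, 106 in SIG6, 167 in RPOTM and 0 in SIG3. TGGGCC lay beyond them in SIG1 and RPOTM and across their edge in SIG6. It lay wholly within them in SIG2, SIG4 and RPOTMP. Both SIG3 motifs lay beyond them. A match is a run of letters and carries no measurement of binding.

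In gun1-1 all 6 sigma factor transcripts were higher than in Col-0, and no phage-type polymerase transcript was. The deposited values are FPKM (fragment counts scaled by transcript length and by the mapped fragments of a library), 1 value per group and table, so they carry no spread between libraries, and depth is unknown. Each gene is given by its transcript with the highest mean level, and a gene is called higher or lower where the authors' Cuffdiff test ran and its q-value was under 0.05. Of the 9 genes, 6 were called higher and 1 lower in gun1-1, where 33.7% of 18788 tested genes were called, 18.7% higher and 15.0% lower. SIG1 had 117 FPKM in gun1-1 and 34.4 FPKM in Col-0, a 3.41-fold level. In the authors' deposited table its log2 fold change was 1.77 (SE 0.18, q = 0.000376), and 97.7% of the tested genes had a lower one. The SE is taken from the deposited statistic or p-value, whichever gives the larger.

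SIG6, the sigma factor known for general activity in young seedlings, had the highest level of the set in gun1-1, at 132 FPKM, against 61.8 FPKM in Col-0. SIG4, whose known target is the plastid gene ndhF, had 41.8 FPKM in gun1-1 and 17.6 FPKM in Col-0. These 2 were 2.13-fold and 2.38-fold higher. SIG2, which serves plastid transfer RNA genes and psaJ, had 91.0 FPKM in gun1-1 and 48.3 FPKM in Col-0. SIG5, which blue light and stress induce and which acts at psbD and psbA, had 78.0 FPKM in gun1-1 and 44.4 FPKM in Col-0. SIG3, whose known target is psbN, rose least, with 28.7 FPKM in gun1-1 and 18.1 FPKM in Col-0. In the authors' deposited table the log2 fold changes of the 6 sigma factors ran between 0.66 (SIG3, SE 0.22) and 1.77 (SIG1) with a median of 1.00, beside −0.02 over all tested genes, and each had q = 0.000376. That q is the smallest the table lists, reached at its smallest p of 5e-05, so it does not rank them.

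The polymerases moved otherwise in gun1-1. RPOTP had 24.0 FPKM in gun1-1 and 25.3 FPKM in Col-0, and RPOTM had 9.90 FPKM in gun1-1 and 12.0 FPKM in Col-0. RPOTMP had 2.83 FPKM in gun1-1 and 5.41 FPKM in Col-0. Of the 3, RPOTMP passed the test: its log2 fold change in the authors' deposited table was −0.93 (SE 0.32, q = 0.000376). The same table gives −0.08 (SE 0.18, q = 0.637) for RPOTP and −0.28 (SE 0.21, q = 0.0610) for RPOTM, neither of them called. With 1 of 3 called, the polymerases were near the background of 33.7%.

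**Figure D1:**
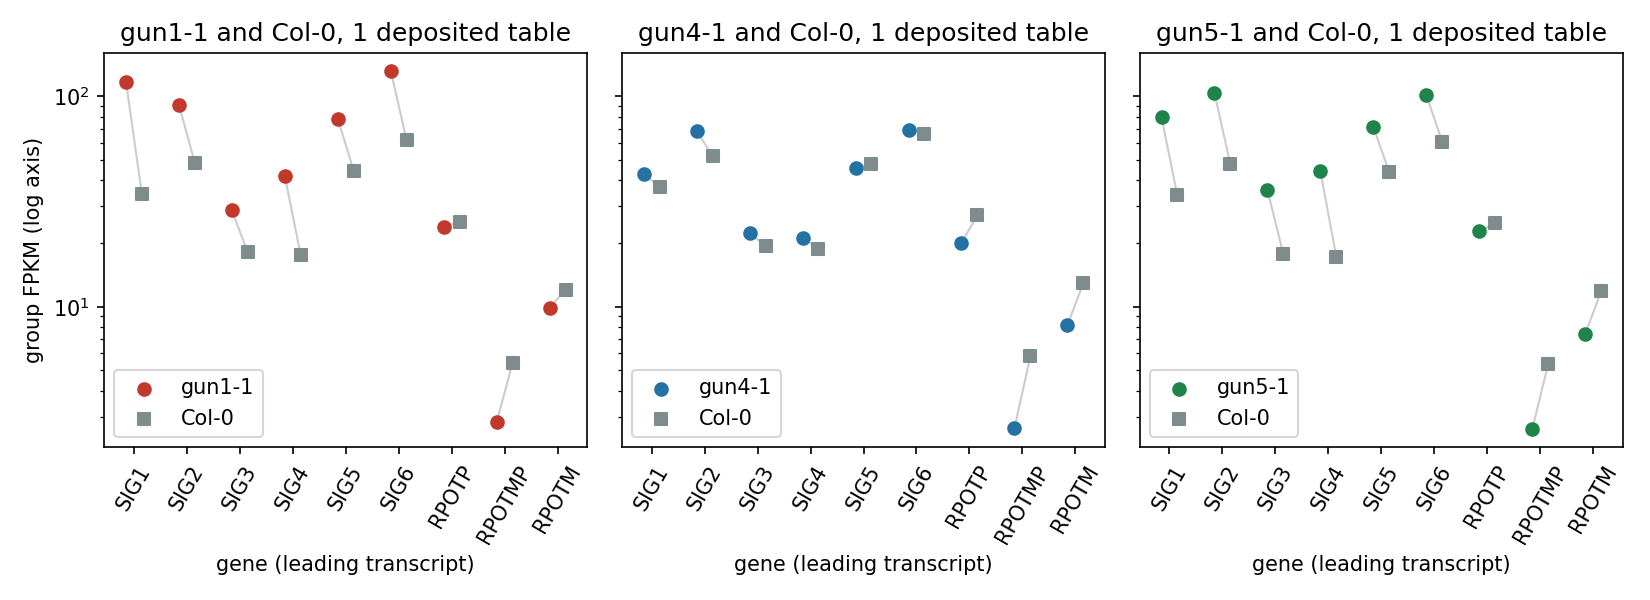
Group FPKM (log axis) of the leading transcript of each of the 9 genes, with 1 panel per deposited table, circles for the mutant and squares for Col-0, joined by a line. In gun1-1 and gun5-1 all 6 sigma factors lie above Col-0, while RPOTMP lies near 2.83, 2.65 and 2.61 FPKM in gun1-1, gun4-1 and gun5-1, below Col-0 in each panel.

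In gun4-1 SIG2 was the sigma factor that passed the test, and all 3 polymerases were lower. Of the 9 genes, 1 was called higher and 3 lower, where 14.1% of 18988 tested genes were called, 8.21% higher and 5.92% lower. SIG2 had 68.6 FPKM in gun4-1 and 51.9 FPKM in Col-0, with a log2 fold change of 0.40 (SE 0.24, q = 0.0381) in the authors' deposited table. SIG1 had 42.7 FPKM in gun4-1 and 37.0 FPKM in Col-0. SIG3 had 22.4 FPKM in gun4-1 and 19.4 FPKM in Col-0, and SIG4 had 21.3 FPKM in gun4-1 and 18.9 FPKM in Col-0. The levels of SIG5 (45.5 FPKM in gun4-1 and 47.7 FPKM in Col-0) and SIG6 (69.3 FPKM in gun4-1 and 66.4 FPKM in Col-0) lay within 1.05-fold of each other. For the 5 sigma factors that were not called, the authors' deposited table gives log2 fold changes from −0.07 (SIG5, q = 0.784) to 0.21 (SIG1, q = 0.242).

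RPOTMP had 2.65 FPKM in gun4-1 and 5.81 FPKM in Col-0, RPOTM had 8.18 FPKM in gun4-1 and 12.9 FPKM in Col-0, and RPOTP had 20.2 FPKM in gun4-1 and 27.2 FPKM in Col-0. Their log2 fold changes in the authors' deposited table were −1.13 (SE 0.35) for RPOTMP, −0.66 (SE 0.23) for RPOTM and −0.43 (SE 0.19) for RPOTP, each with q = 0.00103. The gun4-1 calls rest on the deposited q-values: where p was recomputed from the larger SE and adjusted over all tested genes, RPOTMP alone remained called. SIG2, RPOTP and RPOTM then had adjusted p = 0.693, 0.283 and 0.0818, by a normal test on the authors' deposited fold changes centred on the median gene. The deposited p-values correspond to statistics about 1.74 times the deposited ones.

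In gun5-1 all 6 sigma factor transcripts were again higher, and RPOTMP and RPOTM were lower. Of the 9 genes, 6 were called higher and 2 lower, where 29.5% of 18542 tested genes were called, 16.4% higher and 13.1% lower. SIG4 had 44.2 FPKM in gun5-1 and 17.3 FPKM in Col-0, 2.55-fold, the highest fold of the set in this mutant. SIG1 had 79.4 FPKM in gun5-1 and 33.8 FPKM in Col-0. SIG2 had 103 FPKM in gun5-1 and 47.5 FPKM in Col-0, and SIG3 had 35.9 FPKM in gun5-1 and 17.8 FPKM in Col-0. These 4 were at least 2-fold higher. SIG6 had 102 FPKM in gun5-1 and 60.8 FPKM in Col-0, and SIG5 had 71.4 FPKM in gun5-1 and 43.7 FPKM in Col-0. The log2 fold changes in the authors' deposited table ran from 0.71 (SIG5, SE 0.17) to 1.35 (SIG4, SE 0.24), with a median of 1.07 for the sigma factors against −0.02 over all tested genes. All 6 stood at that table's smallest q of 0.00042.

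RPOTMP had 2.61 FPKM in gun5-1 and 5.32 FPKM in Col-0, and RPOTM had 7.40 FPKM in gun5-1 and 11.8 FPKM in Col-0. Both were called lower in the authors' deposited table, with log2 fold changes of −1.03 (SE 0.33) and −0.68 (SE 0.22). RPOTP had 22.9 FPKM in gun5-1 and 24.9 FPKM in Col-0 and was not called (q = 0.480 in the authors' deposited table). The 3 comparisons share the Col-0 libraries, so their like values for RPOTMP are not independent of each other. RPOTMP is also the gene with the lowest level of the 9, and its SE is the largest of the set in every table.

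**Figure D2:**
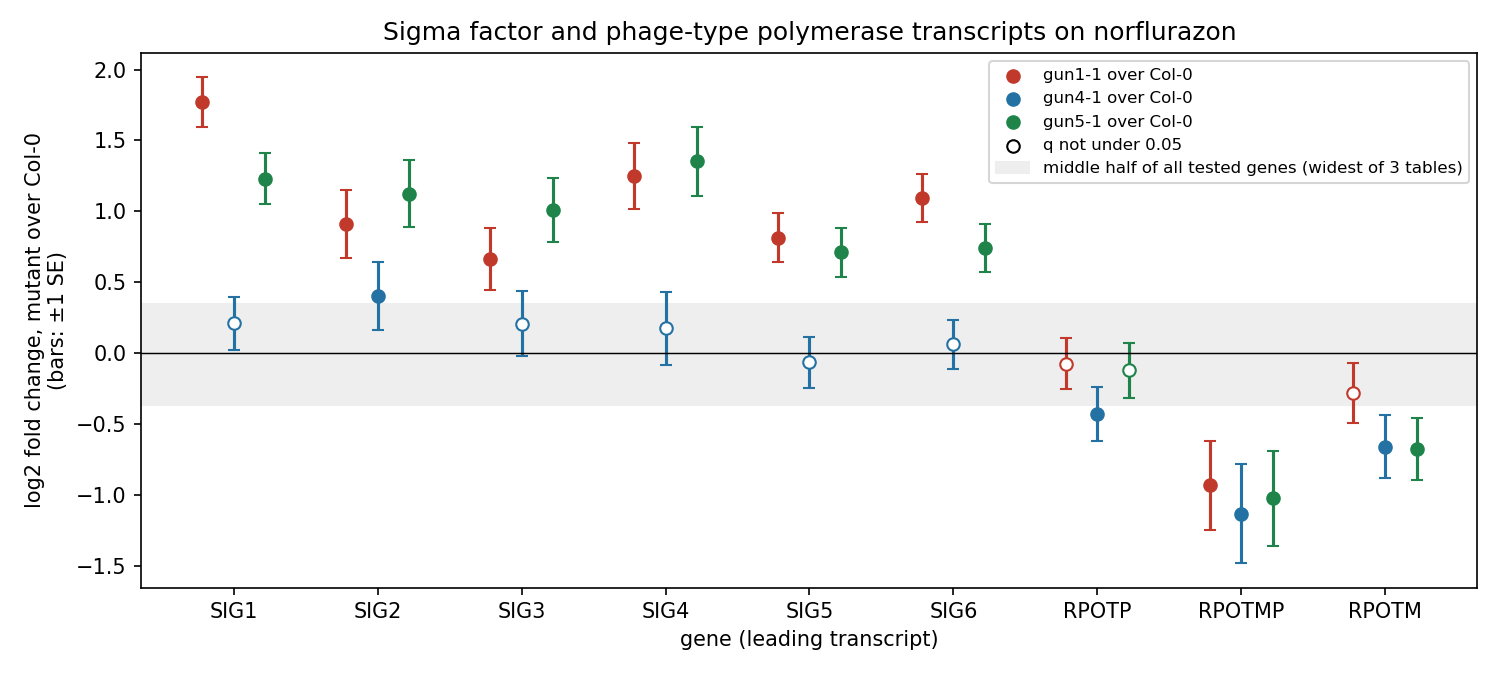
Log2 fold change of each gene, mutant over Col-0 as deposited, with bars of 1 SE, filled where the q-value was under 0.05 and open otherwise; the grey band spans the middle quartiles of all tested genes in the widest of the 3 tables. The sigma factors lie between 0.66 and 1.77 in gun1-1 and gun5-1, near 0 in gun4-1 except SIG2 at 0.40, and RPOTMP lies between −1.13 and −0.93 in all 3 mutants.

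Some markers of other cells were called as well, and the libraries are of tissue mixtures, in which fewer cells of a type and less RNA per cell cannot be told apart. All 13 markers of root, seed, epidermis, guard cell, phloem and leaf were tested in each table, and none was listed at 0 in any group. The 3 root markers summed to 1899 FPKM in gun1-1, 4151 FPKM in gun4-1 and 2566 FPKM in gun5-1, against 3544, 3805 and 3486 FPKM in Col-0 of the same tables. PYK10 made up nearly all of each sum, with 1865 FPKM in gun1-1, 4117 FPKM in gun4-1 and 2536 FPKM in gun5-1. Of the 3 root markers, 3 were called lower in gun1-1, 2 in gun4-1 and 3 in gun5-1. Over all tested genes 15.0%, 5.92% and 13.1% were called lower. In gun4-1 the called root markers were COBL9 and EXPA7, and PYK10 was not called. The 3 seed storage markers summed to 26.7 FPKM in gun1-1, 7.41 FPKM in gun4-1 and 21.4 FPKM in gun5-1, against 116, 125 and 114 FPKM in Col-0. Of the 3, CRA1 and CRC were called lower in gun1-1 and 0 were called in gun4-1 and in gun5-1, by the authors' test. The epidermis marker ATML1 was called lower in gun1-1 and higher in gun4-1. Of the 3 guard cell markers, KAT1 was called higher in gun4-1 and gun5-1 and FAMA in gun5-1, and of the 2 phloem markers, APL in gun5-1. The leaf marker AS1 was called higher in each mutant. Of all tested genes, 18.7% in gun1-1, 8.21% in gun4-1 and 16.4% in gun5-1 were called higher. Marker calls rest on the deposited q-values. In gun4-1 the log2 fold change was 0.54 (SE 0.30) for ATML1 and 0.48 (SE 0.26) for KAT1. The part of tissue make-up in the results above was not tested. As for the mutated genes, GUN1 had 137 FPKM in gun1-1 and 149 FPKM in Col-0, GUN4 had 3.67 FPKM in gun4-1 and 2.21 FPKM in Col-0, and GUN5 had 683 FPKM in gun5-1 and 189 FPKM in Col-0. A level says nothing of a changed base, so these values do not check the alleles.

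The 6 leading sigma transcripts summed to 489 FPKM in gun1-1, 270 FPKM in gun4-1 and 436 FPKM in gun5-1, against 225, 241 and 221 FPKM in Col-0 of the same tables. SIG1 made up 24.0% of that sum in gun1-1, 15.8% in gun4-1 and 18.2% in gun5-1, against 15.3% in Col-0. SIG5 held 16.0%, 16.9% and 16.4% in gun1-1, gun4-1 and gun5-1, against 19.8% in Col-0. SIG4 reached 10.1% in gun5-1, against 7.83% in Col-0, and SIG2 25.4% in gun4-1, against 21.5% in Col-0. SIG6 held 27.0% in gun1-1 and 25.7% in gun4-1 but 23.3% in gun5-1, against 27.5% in Col-0. A share within a table does not depend on the scaling between tables, and no test was possible on shares of group values.

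The phage-type transcripts summed to 36.7 FPKM in gun1-1, 31.0 FPKM in gun4-1 and 32.9 FPKM in gun5-1, against 42.8, 45.9 and 42.1 FPKM in Col-0. RPOTMP held 7.71% of the sum in gun1-1, 8.54% in gun4-1 and 7.94% in gun5-1, against 12.7% in Col-0, while RPOTP held 65.3%, 65.1% and 69.6% in the mutants, against 59.2% in Col-0. The level of RPOTP over that of RPOTMP was 8.48 in gun1-1, 7.62 in gun4-1 and 8.76 in gun5-1, against 4.68 in Col-0. Summed sigma factor over summed phage-type level was 13.3 in gun1-1, 8.71 in gun4-1 and 13.2 in gun5-1, against 5.25 in Col-0. In gun4-1 the sigma sum was 1.12 times and the phage-type sum 0.675 times that in Col-0.

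**Figure D3:**
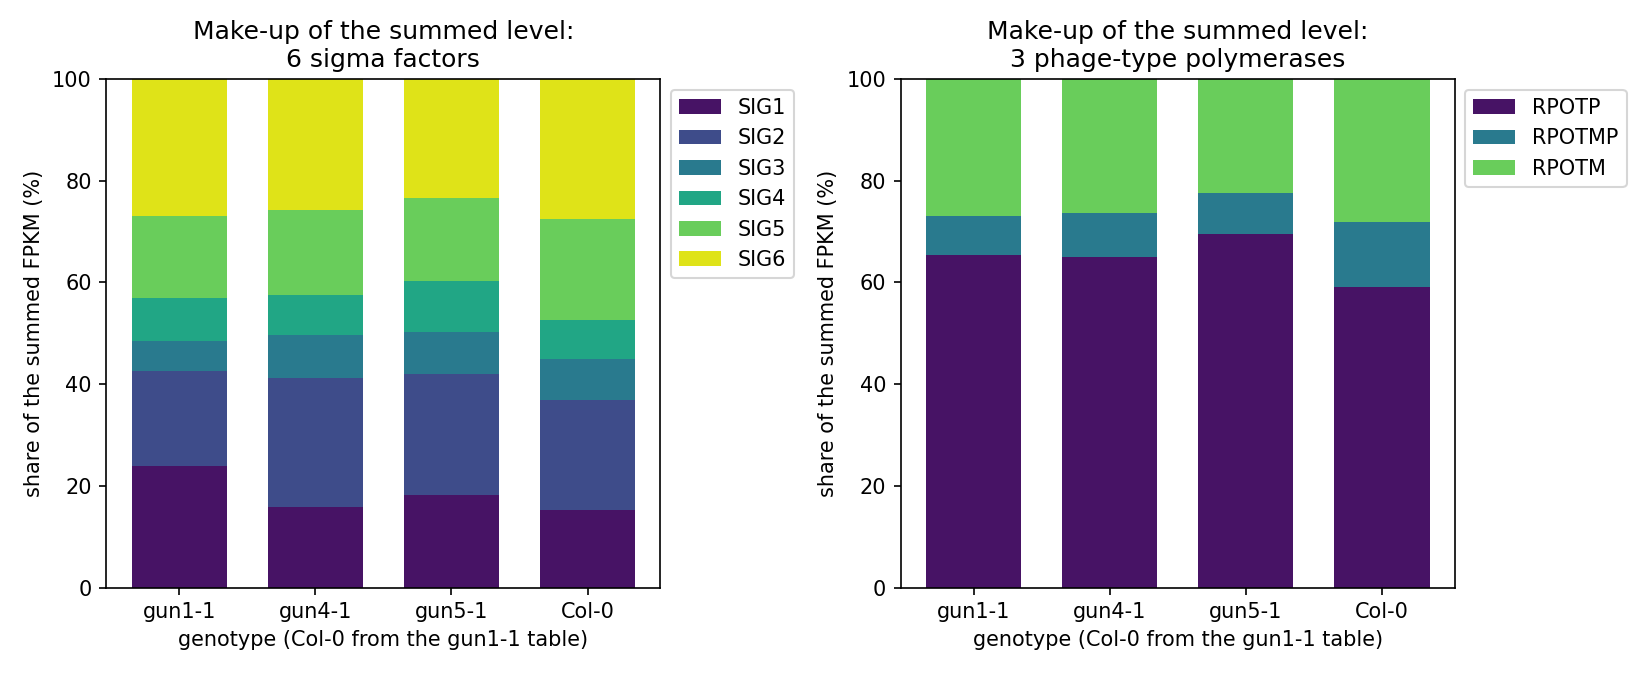
Stacked bars of the share (%) that each gene holds in the summed FPKM of the 6 sigma factors (left) and the 3 phage-type polymerases (right), for gun1-1, gun4-1, gun5-1 and Col-0 as given in the gun1-1 table. SIG1 takes 24.0% in gun1-1 against 15.3% in Col-0, and RPOTMP takes 7.71 to 8.54% in the mutants against 12.7% in Col-0.

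FPKM is scaled by transcript length, so levels can be ordered between genes. In gun1-1 the order was SIG6, SIG1, SIG2, SIG5, SIG4, SIG3, RPOTP, RPOTM and RPOTMP. In gun5-1 it was SIG2, SIG6, SIG1, SIG5, SIG4, SIG3, RPOTP, RPOTM and RPOTMP. In Col-0 it was SIG6, SIG2, SIG5, SIG1, RPOTP, SIG3, SIG4, RPOTM and RPOTMP in each table. RPOTP thus stood below all sigma factors in the mutants, gun4-1 included, where SIG4 had 21.3 FPKM and RPOTP 20.2 FPKM, and above SIG3 and SIG4 in Col-0. The values carry no spread over libraries, so whether neighbours in these orders differ could not be judged. SIG6 in gun1-1 lay above 93.4% of the genes with at least 1 FPKM there, and RPOTMP above 15.9%.

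Differences between mutants were tested for each of the 9 genes in 3 pairs, 27 tests, with the difference of deposited log2 fold changes set against its SE and p-values adjusted by Benjamini-Hochberg over all genes tested in both tables. The test is approximate, because the 2 fold changes share the Col-0 libraries. SIG1, SIG4, SIG5 and SIG6 were higher in gun1-1 than in gun4-1, 4 of 9 genes, where 6.19% of 18481 genes differed. The SIG1 difference was 1.56 (95% interval 1.06 to 2.06, adjusted p = 1.56e-07, from a normal test on the authors' deposited values). By the same test on values of the authors, it was 1.03 for SIG6 (0.56 to 1.50, adjusted p = 0.000707), 1.08 for SIG4 (0.39 to 1.76, adjusted p = 0.0370) and 0.88 for SIG5 (0.39 to 1.37, adjusted p = 0.00970). SIG2 differed by 0.51 and SIG3 by 0.46, with intervals from −0.15 to 1.17 and from −0.16 to 1.08, and were not called.

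SIG1 and SIG4 were higher in gun5-1 than in gun4-1, 2 of 9 genes, where 2.79% of 18345 genes differed. Their differences, tested on the authors' deposited values, were 1.02 (0.52 to 1.53, adjusted p = 0.00540) and 1.18 (0.48 to 1.88, adjusted p = 0.0367). On the authors' values SIG5 and SIG6 missed the threshold here, at 0.78 (0.29 to 1.26, adjusted p = 0.0610) and 0.68 (0.20 to 1.15, adjusted p = 0.125). Both were called where the SE came from the deposited p alone, which made 4 of 9. The share of all genes called with that SE is not given here. Between gun1-1 and gun5-1 the normal test called 0 of 9 genes, where 1.71% of 18304 genes differed, and 1 gene had an unadjusted p under 0.05. That gene was SIG1, at 0.54 on the authors' values (0.05 to 1.03, p = 0.0323, adjusted p = 0.565). For the polymerases no pair of mutants gave a call: the RPOTMP differences were 0.20, 0.11 and 0.09 for gun1-1 minus gun4-1, gun5-1 minus gun4-1 and gun1-1 minus gun5-1, with intervals of −0.73 to 1.12, −0.84 to 1.05 and −0.81 to 0.99. The RPOTP interval for gun1-1 minus gun4-1 ran from −0.16 to 0.86. Its call in gun4-1 and the lack of one in gun1-1 therefore do not show that these mutants differ.

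**Figure D4:**
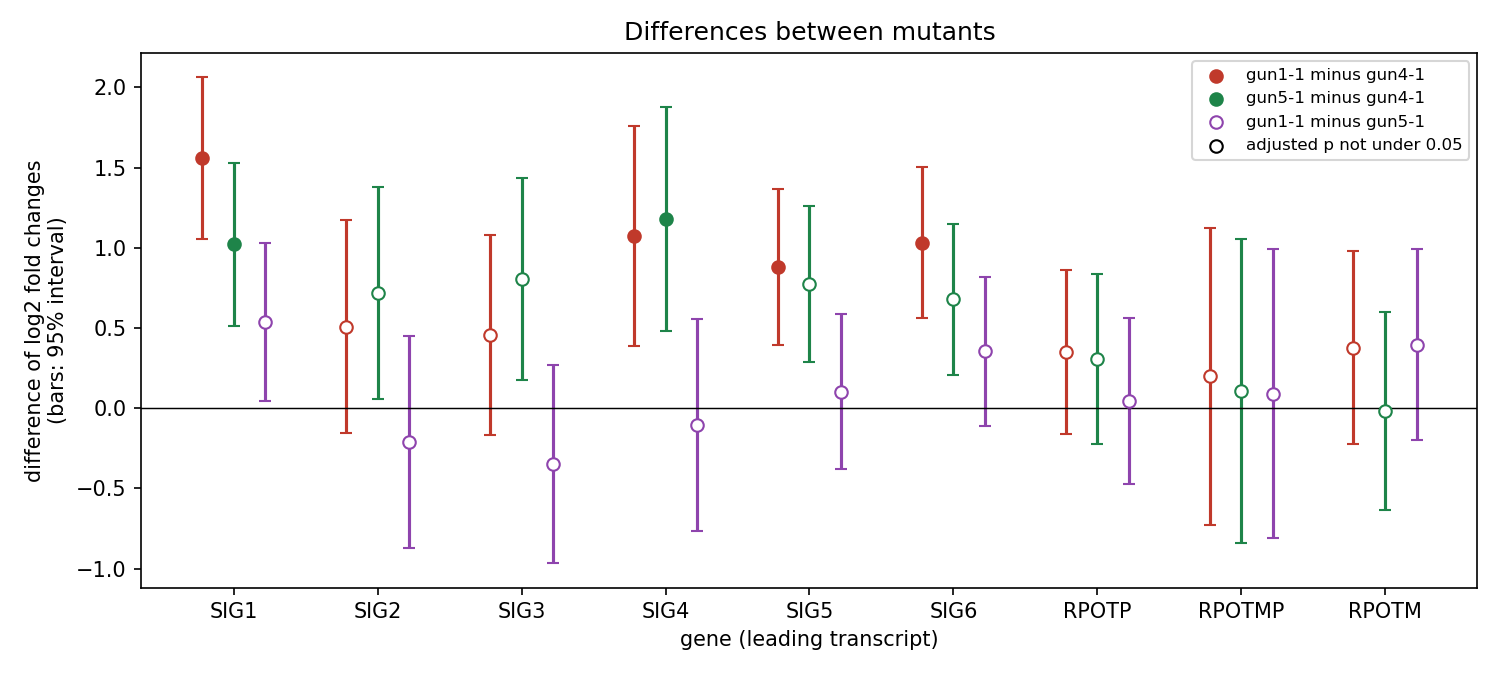
Difference between 2 mutants in the log2 fold change over Col-0, per gene, with bars of the 95% interval, filled where the adjusted p was under 0.05. SIG1 lies at 1.56 for gun1-1 minus gun4-1 and at 1.02 for gun5-1 minus gun4-1, while every RPOTP, RPOTMP and RPOTM interval spans 0.

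The tables hold 18 transcripts of the 9 genes. SIG4 and SIG6 have 1 each, and the 9 transcripts beside the leading ones were mostly too low to be tested, the highest untested value being 1.26 FPKM. The second SIG1 transcript had 8.75 FPKM in gun1-1 against 1.69 FPKM in Col-0, 3.19 FPKM in gun4-1 against 1.81 FPKM in Col-0, and 4.71 FPKM in gun5-1 against 1.66 FPKM in Col-0. It was called higher in gun1-1 and gun5-1, with log2 fold changes of 2.38 (SE 0.86, q = 0.00134) and 1.51 (SE 0.92, q = 0.0411) in the authors' deposited table. It made up 6.94% of the SIG1 level in gun1-1, 6.94% in gun4-1 and 5.60% in gun5-1, against 4.67% in Col-0. The second SIG3 transcript did not pass in any mutant: it had 5.90 FPKM in gun1-1, 5.00 FPKM in gun4-1 and 7.34 FPKM in gun5-1, against 5.61, 6.03 and 5.52 FPKM in Col-0. Its share of the SIG3 level was 17.0% in gun1-1, 18.2% in gun4-1 and 17.0% in gun5-1, against 23.7% in Col-0. A further SIG5 transcript was listed at 1.30 FPKM in gun1-1 and at 0 in Col-0 and was not called.

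Several of the genes overlap or share a locus with a neighbour, and nothing states that counting used the strand. SIG2 (chromosome 1, 2703295 to 2706860) shares a locus with NPQ1 (AT1G08550), which encodes violaxanthin de-epoxidase. NPQ1 had 63.9 FPKM in gun1-1 against 31.3 FPKM in Col-0, 32.5 FPKM in gun4-1 against 33.6 FPKM in Col-0, and 71.6 FPKM in gun5-1 against 30.8 FPKM in Col-0. It was called higher in gun1-1 and gun5-1. SIG4 (chromosome 5, 4429095 to 4430901, minus strand) overlaps AT5G13720 on the plus strand by 201 bases. AT5G13720 had 16.0 FPKM in gun1-1 against 14.2 FPKM in Col-0, 19.3 FPKM in gun4-1 against 15.3 FPKM in Col-0, and 26.9 FPKM in gun5-1 against 14.0 FPKM in Col-0, and was called higher in gun5-1 only. RPOTM (chromosome 1, 25934997 to 25940996) overlaps AT1G68980 by 34 bases, and RPOTP (chromosome 2, 10248851 to 10254641) shares a locus with AT2G24110. Neither neighbour was called in any mutant. SIG3 (chromosome 3, 19960789 to 19963980) meets AT3G00910 at 1 base, and that gene stayed under 1 FPKM. Reads from the shared stretch cannot be assigned with certainty, which touches the SIG4 value in gun5-1. NPQ1 had log2 fold changes of 1.03 in gun1-1 and 1.22 in gun5-1, beside 0.91 and 1.12 for SIG2. Whether reads of NPQ1 enter the SIG2 values was not tested. SIG1 (chromosome 1, 24097736 to 24100970), SIG5 (chromosome 5, 8157151 to 8160343), SIG6 (chromosome 2, 15537225 to 15540139) and RPOTMP (chromosome 5, 5114761 to 5121841) overlap no other gene. Positions are those of TAIR10.1.

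Among proteins that work with the plastid-encoded polymerase, calls went both ways in gun1-1 and mostly higher in gun5-1. The list held 18 genes: the 12 polymerase-associated proteins PAP1 to PAP12, FLN2, PRIN2, the sigma-binding proteins SIB1 and SIB2, the plastid casein kinase cpCK2 and the chloroplast sensor kinase CSK, of which 17 were tested, SIB1 being too low. In gun1-1 6 were called higher and 5 lower, where 33.7% of all tested genes were called. In gun4-1 2 were called higher and 0 lower, near the 14.1% called there, and in gun5-1 9 were called higher and 1 lower, where 29.5% were called, 16.4% higher. Their median log2 fold changes in the authors' deposited table were −0.14, 0.13 and 0.27, beside −0.02, −0.00 and −0.02 over all tested genes. PAP8, also called pTAC6, had 122 FPKM in gun1-1 against 72.5 FPKM in Col-0, 100.1 FPKM in gun4-1 against 77.9 FPKM in Col-0, and 116 FPKM in gun5-1 against 71.3 FPKM in Col-0, and was called higher in each.

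PAP12 was called higher in gun1-1, with 316 FPKM against 204 FPKM in Col-0, and PAP2 in gun4-1, with 25.6 FPKM against 20.2 FPKM in Col-0. The gun4-1 calls of PAP8 and PAP2 rest on the deposited q-values, with log2 fold changes of 0.36 (SE 0.19) and 0.35 (SE 0.18). CSK, which is linked to sigma factor phosphorylation, had 30.5 FPKM in gun5-1 and 15.2 FPKM in Col-0, the largest rise of the list there, followed by PAP7 with 50.7 FPKM in gun5-1 and 30.8 FPKM in Col-0. In the other direction, PAP9, an iron superoxide dismutase, had 37.6 FPKM in gun1-1 and 60.2 FPKM in Col-0, and PAP6, a fructokinase-like protein, had 55.3 FPKM in gun1-1 and 76.5 FPKM in Col-0. Both were called lower in gun1-1 (log2 fold changes −0.68 and −0.47 in the authors' deposited table) and not called in gun4-1 or gun5-1. FLN2, another fructokinase-like protein, was called lower in gun1-1 and in gun5-1, where it had 48.1 FPKM against 63.0 FPKM in Col-0.

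Plastid genes that the polymerases read lay lower in gun1-1 and higher in gun4-1 and gun5-1. Most plastid transcripts carry no poly(A) tail, and the labels describe oligo(dT) selection, so these FPKM values reflect what passed that selection. The part of the selection was not tested. Of 11 genes read mainly by the plastid-encoded polymerase, 10 were called lower in gun1-1, and 10 were called higher in gun4-1 and 10 in gun5-1, with medians of −1.74, 1.92 and 2.12 on the log2 scale in the authors' deposited tables. Of 8 tested genes read mainly by the nucleus-encoded polymerase (ycf2 was not tested), 6 were called lower in gun1-1, and all 8 were called higher in gun4-1 and in gun5-1, with medians of −1.55, 1.76 and 1.93. Beside these counts, 15.0% of all tested genes were called lower in gun1-1, and 8.21% in gun4-1 and 16.4% in gun5-1 were called higher. Both lists thus moved in 1 direction within a mutant. psaB, a core protein of photosystem I, had 0.300 FPKM in gun1-1 against 1.28 FPKM in Col-0, 11.6 FPKM in gun4-1 against 1.37 FPKM in Col-0, and 9.97 FPKM in gun5-1 against 1.26 FPKM in Col-0. The polymerase subunit gene rpoB had 1.55 FPKM in gun1-1 against 6.12 FPKM in Col-0, 19.96 FPKM in gun4-1 against 6.57 FPKM in Col-0, and 28.0 FPKM in gun5-1 against 6.02 FPKM in Col-0.

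The largest changes called in these lists had the following log2 values in the authors' deposited tables. In gun1-1 they were −2.16 for psaA and −2.09 for psaB of the first list, and −1.98 for rpoB and −1.86 for rpoC2 of the other. In gun4-1 they were 3.07 for psaB, 2.85 for psaA, 2.72 for rpoC2 and 2.42 for rps2, and in gun5-1 2.99 for psaB, 2.94 for psbD, 2.59 for ycf1 and 2.22 for rpoB. The core subunit genes rpoA, rpoB, rpoC1 and rpoC2 were each called lower in gun1-1 and higher in gun4-1 and gun5-1. Sigma factors were thus higher in gun1-1 while the core subunit transcripts lay lower there.

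Genes named as targets of single sigma factors can be set beside their factor. In the deposited tables psbD shares 1 locus with psbC, atpB with atpE, and ndhF lies in a locus that also holds an annotated ycf1 copy, so their values may hold reads of the other gene, and psbD and psbC are not independent members of the list above. For SIG4, ndhF had 0.426 FPKM in gun1-1 against 1.31 FPKM in Col-0, 4.87 FPKM in gun4-1 against 1.41 FPKM in Col-0, and 4.86 FPKM in gun5-1 against 1.29 FPKM in Col-0. For SIG5, psbD had 3.56 FPKM in gun1-1 against 11.5 FPKM in Col-0, 43.0 FPKM in gun4-1 against 12.4 FPKM in Col-0, and 86.5 FPKM in gun5-1 against 11.3 FPKM in Col-0. The other SIG5 target, psbA, had 1.69 FPKM in gun1-1 against 5.64 FPKM in Col-0, 29.2 FPKM in gun4-1 against 6.07 FPKM in Col-0, and 19.0 FPKM in gun5-1 against 5.55 FPKM in Col-0. Each of these 3 genes was called lower in gun1-1 and higher in gun4-1 and gun5-1. SIG4 and SIG5, in contrast, were higher in gun1-1 and gun5-1 and not called in gun4-1.

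For SIG6, atpB had 60.3 FPKM in gun1-1 against 247 FPKM in Col-0, 481 FPKM in gun4-1 against 265 FPKM in Col-0, and 1180 FPKM in gun5-1 against 243 FPKM in Col-0, each called. For SIG2, psaJ was listed at 0 in gun1-1 against 2373 FPKM in Col-0 (q = 0.0158 in the authors' deposited table), at 731 FPKM in gun4-1 against 2550 FPKM in Col-0, and at 2224 FPKM in gun5-1 against 2334 FPKM in Col-0. The psaJ transcript is very short, and its SE in gun4-1 and gun5-1, 1.70 and 1.80 on the log2 scale, left both uncalled. In gun1-1 the value of 0 gives no finite log2 fold change, statistic or SE, so the error of that call is unknown. The SIG3 target psbN was listed at 0 in every group and was not tested.

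**Figure D5:**
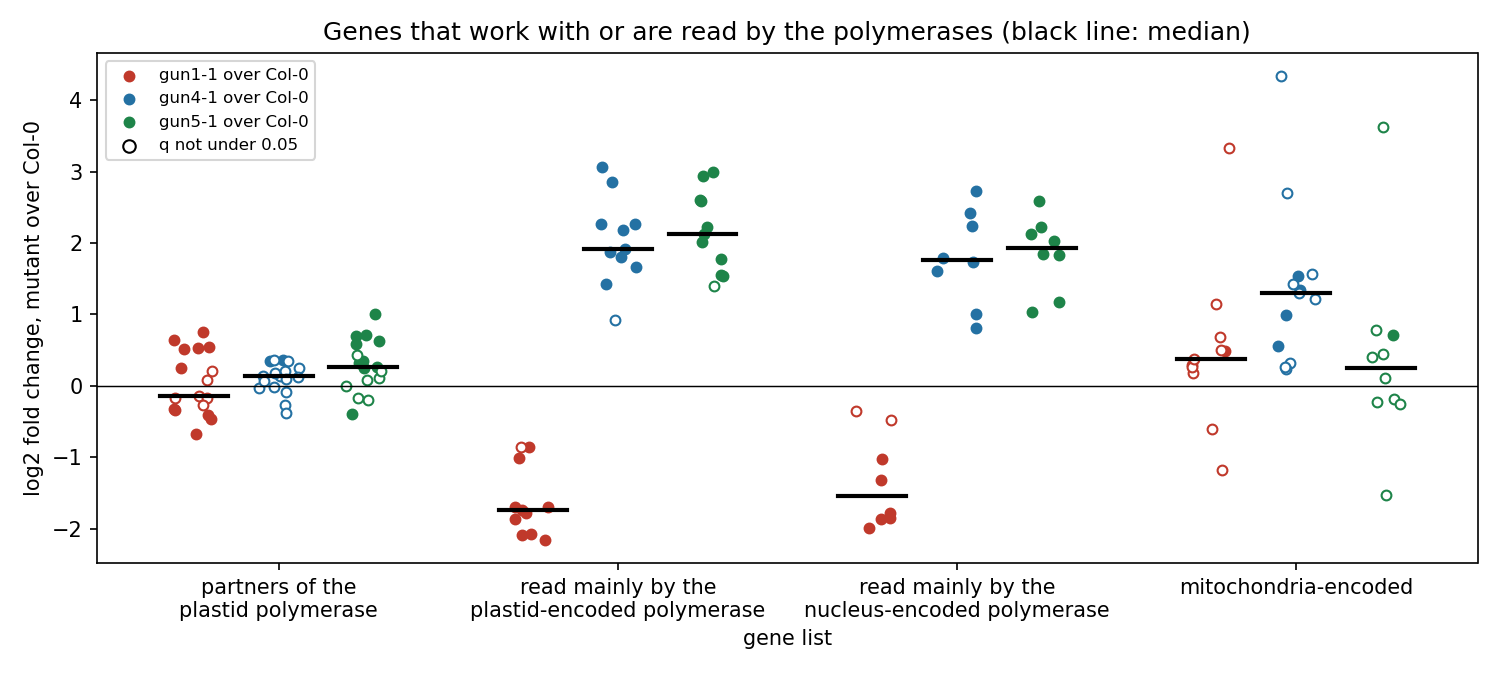
Log2 fold change, mutant over Col-0 as deposited, of each tested gene of 4 lists, filled where the q-value was under 0.05, with a black line at the list's median. Partner genes centre near 0 (medians −0.14, 0.13 and 0.27 in gun1-1, gun4-1 and gun5-1), and both plastid lists lie below 0 in gun1-1 and above 0 in gun4-1 and gun5-1.

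Mitochondria-encoded genes, read by RPOTM and RPOTMP, gave few values. Of 161 such genes 11 were tested in gun1-1, 13 in gun4-1 and 10 in gun5-1, with 1, 4 and 1 called higher and none lower in these deposited tables. Over all tested genes 18.7%, 8.21% and 16.4% were called higher, so the gun1-1 and gun5-1 counts are near or below the background. Their median log2 fold changes in the authors' deposited tables were 0.38, 1.30 and 0.25. ATMG01390 was called higher in gun1-1, with 91.4 FPKM against 65.3 FPKM in Col-0, and in gun4-1, with 203 FPKM against 70.2 FPKM in Col-0. The next largest called rise in gun4-1 was that of ATMG01360, with 3.31 FPKM against 1.31 FPKM in Col-0. In gun5-1 the called gene was ATMG00020, with 304 FPKM against 185 FPKM in Col-0. RPOTMP and RPOTM were lower or uncalled in these same comparisons. The oligo(dT) selection applies to these transcripts as well.

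The genes whose pattern over the 3 mutants was most like that of each member were sought among 13493 genes with at least 5 FPKM in Col-0, by Euclidean distance between their 3 log2 fold changes. For SIG1 they were CGLD27 (distance 0.147) and AT1G50732 (0.161), and 5 genes lay within 0.2. RPOTMP had AT3G29798 (0.0756) and NAC048 (0.169) nearest, and 6 genes within 0.2. The patterns of the other members were more common: SIG2 had 61 genes within 0.2, led by ACP4 and RBP31, SIG3 had 65, led by AT3G63540 and AT2G44920, and SIG4 had 20, led by AT5G17670 and AT1G29700. SIG5 had 67, led by AT1G21065 and AT1G15180, and SIG6 had 64, led by MAPKKK13 and SSL4. RPOTP had 161, led by PUB38 and SEC5B, and RPOTM had 48, led by AT1G36060 and ITPK4. Within the set the closest pairs were SIG5 with SIG6 (0.308) and SIG2 with SIG3 (0.335), and the nearest polymerase pair was RPOTP with RPOTM (0.637). Distances rest on 3 values that share the Col-0 libraries and are given as a description.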

How the data were processed

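RNA sequencing libraries of 12 seedling samples were compared as 3 mutant groups against Col-0. Per the labels, mRNA was selected with oligo(dT) beads and primed with random hexamers, and the submitters' processing notes name Trimmomatic, TopHat, Cufflinks and Cuffdiff. Their versions, the genome build, the annotation and any use of strand are not given in the sources used. The authors' deposited tables give 1 FPKM value per group; depth is therefore unknown and libraries cannot be compared within a group. Beside these stand the deposited log2 fold change (mutant over Col-0), the authors' test score (Cuffdiff's signed statistic) and the deposited p-value and q-value, adjusted over all tested transcripts. Nothing tells whether the 3 samples of a group came from separate cultures beyond the design text's word of biological triplicates. The tables were scaled separately, and relative to the gun1-1 table the Col-0 values stand at 1.07 in that of gun4-1 and at 0.984 in that of gun5-1.

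The transcript with the highest mean over the 6 group values stood for its gene, which was called at a q-value under 0.05 with test status OK. The SE was the larger of the ratios of the log2 fold change to the statistic and to the normal quantile that matches p, the second only where p was above 5e-05. Differences between mutants used a two-sided normal test with Benjamini-Hochberg adjustment. The calculation was tested on simulated data in which the 2 fold changes were independent and had the assumed SE. That setting leaves out the shared Col-0 libraries. Python 3.11.15, pandas 2.3.3, numpy 2.4.6, scipy 1.17.1 and matplotlib 3.10.9 were used. TAIR10.1 served for names, positions and sequence: of 34276 genes alone in their locus, 26470 had the same start and end in the deposited tables, and the reference gene lay inside the locus for 34269. Named genes are the 9 members, the 3 mutated genes, the sigma targets, the 2 largest called rises and falls of each other polymerase, plastid or mitochondrial list in each table, and the 2 nearest genes by distance. Markers were named after their values were seen. Members, lists and tests were chosen with earlier results of these data known. Alternatives covered the transcript chosen, thresholds, low values, the SE and centring.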

Additional observations from a re-analysis of the deposited data

Results flagged for a closer look

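The effect of 2 mutants differed by a test of the difference itself for 6 pairs of gene and contrast. On the log2 scale, gun1-1 minus gun4-1 gave 1.56 for SIG1 (adjusted p = 1.56e-07), 1.08 for SIG4 (0.0370), 0.88 for SIG5 (0.00970) and 1.03 for SIG6 (0.000707), all by the normal test on the authors' deposited values, adjusted over all genes tested in both tables. For gun5-1 minus gun4-1 the same test on the authors' values gave 1.02 for SIG1 (adjusted p = 0.00540) and 1.18 for SIG4 (0.0367). The fold changes behind each difference share the Col-0 libraries, and how far the gun4-1 libraries vary among themselves cannot be read from group values.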

How the results depend on the processing

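Under a minimum 2-fold change, 3 of 9 genes remained called in gun1-1 (3 higher, 0 lower), 1 in gun4-1 (RPOTMP) and 5 in gun5-1 (4 higher, 1 lower), against 7, 4 and 8 without it; fewer genes can pass such a limit by construction. In gun4-1, p recomputed from the larger SE left 1 gene called, RPOTMP, with each table centred on its median gene and, in an alternative added after the data were seen, without centring. With the SE from the deposited p alone, 4 genes differed between gun5-1 and gun4-1 in place of 2. The first-numbered transcript gave 6, 3 and 7 calls in gun1-1, gun4-1 and gun5-1, and a q-value under 0.01 gave 7, 3 and 8. Shares of all genes called under these other settings are not given here. The counts therefore have no background beside them and describe these 9 genes only. Of 102 alternative values for single genes, 48 were tested. Of these, 21 came from the first-numbered transcript. For those genes it is the leading transcript itself, so these values repeat the reported ones and could not change. For SIG5 and RPOTP the first-numbered transcript was not tested. With the larger SE and centring, 24 kept their side of the threshold and 3 lost the call (SIG2, RPOTP and RPOTM in gun4-1). The other 54, from summed transcripts or log2(FPKM + 1), carry no test and lay within 1 SE of the value reported. No centred value and no value from summed transcripts changed sign. The first-numbered and log2(FPKM + 1) values could not change it by construction. Nor could the sums of SIG4 and SIG6, which have 1 transcript each. Leaving out single libraries was not run, since the tables hold group values. No paired analysis was possible because the tables hold no values per library. Depth limits are unknown for the same reason, and RPOTMP, at 2.61 to 5.81 FPKM, has the widest errors.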
